A study of Mus musculus with 7 samples.

Results

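In all, 6 genes of sodium handling were followed in the mouse heart under pressure overload: the sodium-glucose cotransporter genes Slc5a1 and Slc5a2, the sodium-calcium exchanger gene Slc8a1, the sodium pump subunit gene Atp1b1, the pump regulator gene Fxyd1 and the kinase gene Camk2d. They were chosen by name for what their proteins do, with earlier results of these data known. They were taken as targets or proposed targets of sodium-glucose cotransporter inhibitors and as the machinery that moves sodium in a heart muscle cell. They are 6 of the 53460 genes in the deposited table. Hearts of 7 mice were sequenced, 3 in the TAC group and 4 in the TAC + EMPA group. All were C57BL/6Ncr mice, given in the study's methods as C57BL/6NCrSlc and male, and all had received transverse aortic constriction (TAC), a surgical narrowing of the aorta that overloads the left ventricle, so hearts without TAC were not part of the comparison. The sample labels put TAC at 12 weeks of age and sampling at 14 weeks, while the study's text puts TAC at a younger age. Mice of the TAC + EMPA group ate chow with empagliflozin (EMPA), an inhibitor of the cotransporter encoded by Slc5a2, for 5 days from 2 weeks after TAC, and mice of the TAC group did not. The tissue is given as heart and holds all of its cell types.

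In a heart muscle cell, sodium enters through channels, exchangers and cotransporters, and the sodium pump drives it out again at the cost of ATP. The sodium-calcium exchanger uses the sodium gradient to expel calcium, so the sodium level of the cell and its calcium level are tied to each other. Calmodulin kinase II is switched on by calcium and phosphorylates several of the channels and calcium handling proteins of this system. The cotransporter inhibited by EMPA is known mainly from the kidney tubule, and its action on the heart has therefore been sought in other sodium transporters.

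The 250 bases before the RefSeq start of 3 of these genes, Slc8a1, Atp1b1 and Camk2d, are shown first, because these are the genes with the largest log2 fold changes between the groups. They are given in GRCm38.p6, 5′ to 3′ on the strand of the gene, with capitals for every match to the motifs searched, and none of the bases lies in a GENCODE exon.
Slc8a1, chr17:81738388-81738637, minus strand: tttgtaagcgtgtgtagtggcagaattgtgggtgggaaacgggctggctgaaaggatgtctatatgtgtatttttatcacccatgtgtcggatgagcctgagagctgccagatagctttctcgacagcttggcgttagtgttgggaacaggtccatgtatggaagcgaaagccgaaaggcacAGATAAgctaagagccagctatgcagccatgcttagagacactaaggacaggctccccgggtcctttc
Atp1b1, chr1:164458356-164458605, minus strand: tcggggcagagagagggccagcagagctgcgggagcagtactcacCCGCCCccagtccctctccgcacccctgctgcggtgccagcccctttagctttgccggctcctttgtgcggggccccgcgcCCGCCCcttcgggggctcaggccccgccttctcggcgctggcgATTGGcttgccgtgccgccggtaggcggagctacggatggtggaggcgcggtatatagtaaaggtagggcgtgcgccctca
Camk2d, chr3:126596701-126596950, plus strand: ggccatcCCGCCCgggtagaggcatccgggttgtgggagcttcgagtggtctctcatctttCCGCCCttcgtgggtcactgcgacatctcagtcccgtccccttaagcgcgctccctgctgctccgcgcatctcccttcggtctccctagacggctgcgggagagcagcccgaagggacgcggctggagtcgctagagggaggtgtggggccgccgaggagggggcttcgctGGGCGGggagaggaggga
Both strands were searched for 4 short motifs. The first was TATAAA, the core motif of the TATA box. The second was CCAAT, the motif of nuclear factor Y. The third was GGGCGG, which the factor Sp1 and its relatives bind. The fourth was AGATAA, a form of the motif of the zinc finger factors of the GATA family. No matches overlapped in these windows. The Slc8a1 window held 1 match to AGATAA, beginning 68 bases before the start. This sequence was found in 9.99% of the 32851 RefSeq promoter windows of this length. Other forms of the GATA family motif were not searched. The Atp1b1 window held 2 matches to the Sp1 motif and 1 to that of nuclear factor Y, and the Camk2d window held 3 matches to the Sp1 motif. The Sp1 motif was present in 32.7% of all windows, that of nuclear factor Y in 33.8% and the TATA box motif in 12.4%. The exact sequence TATAAA was found in none of the 3 windows. Variants of it, such as the tatata near the end of the Atp1b1 window, were not searched, so a TATA-like element is not excluded. GC content was 50.4% before Slc8a1, 70.4% before Atp1b1 and 68.4% before Camk2d. The RefSeq start of Slc8a1 lies outside the shorter locus that the deposited table gives for this gene. In all, 5 of the 6 genes had a window in the table, Fxyd1 and Slc5a1 held no match to the motifs, and Slc5a2 had no entry.

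Before the genes are compared, 1 library has to be set apart. On the first principal component of the 12391 genes with a mean FPKM (fragments per length of transcript and size of library) of at least 1, which held 46.8% of the variance, TAC replicates 1 and 2 lay at -45.7 and -56, and TAC replicate 3 lay at 16.1, close to the TAC + EMPA libraries at 18.9 to 24.3. TAC replicate 3 was nearer to the mean of the TAC + EMPA group than to the mean of the other TAC libraries for 76.9% of these genes, and for 4 of the 4 sodium handling genes above that level. Whether its label was exchanged with that of another library cannot be told from the labels and was not tested. The fold changes of the sodium handling genes, their family shares and the counts over gene lists are therefore given with and without it. Since the library was singled out from the values themselves, p-values without it are a description and not an independent test. The labelled tissue was checked by its markers: 8 of 8 cardiomyocyte markers had a mean FPKM above 1, although Myh6, the gene of the main myosin heavy chain of the mouse heart, was listed at 0 in TAC + EMPA replicate 1 against 4213 to 8589 FPKM in the other libraries. The table marks 41 genes, Myh6 among them, as too abundant to estimate, so a listing of 0 is not always an absence of fragments. The kidney tubule markers Slc34a1, Kap, Slc22a6 and Umod were listed at 0 in all libraries. Summed FPKM of the 6 endothelial markers was 522 and 600 in TAC replicates 1 and 2, 301 in TAC replicate 3 and 269 to 296 in the TAC + EMPA group. The sum of the macrophage markers split in the same way, at 95.5 and 97.6, 68.5, and 67.6 to 76.7. The sum of the cardiomyocyte markers was 70525 and 65097, 57506, and 54313 to 62158. It includes Myh6, and its lowest value is that of TAC + EMPA replicate 1, where Myh6 was listed at 0. No split is therefore read from this sum. Single macrophage and cardiomyocyte markers went both ways. Fibroblast sums, and those of smooth muscle and pericytes, overlapped between TAC replicates 1 and 2 and the TAC + EMPA group. The endothelial and macrophage sums thus separated the same libraries as the genes below. Their part in the values of those genes was not tested. In bulk tissue, fewer cells of a type and less RNA per cell cannot be told apart.

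Among the cotransporters, Slc5a1, which encodes the sodium-glucose cotransporter of the intestine that is also found in heart muscle, was read at a low level in all libraries and was higher in the TAC + EMPA group. Its FPKM was 0.219, 0.126 and 0.300 in TAC replicates 1, 2 and 3. In TAC + EMPA replicates 1 to 4 it was 0.364, 0.374, 0.303 and 0.411. All TAC + EMPA libraries lay above all TAC libraries, but the gap between TAC replicate 3 and TAC + EMPA replicate 3 was small. Such a full separation was not rare in these data. Of the 12391 genes used above for the principal component, 11.5% showed it in this direction and 10.7% in the opposite one. Slc5a1 itself is not in that set. The group means were 0.215 ± 0.0870 (SD, n = 3) and 0.363 ± 0.0450 (SD, n = 4) FPKM, a 1.69-fold difference, and without TAC replicate 3 the fold was 2.10. The exact permutation test over the 35 assignments of the libraries gave p = 0.0286, two-sided and unadjusted over the 6 genes, which is the smallest p that this design allows. Slc5a1 stayed below the mean FPKM of 1 required for the test across genes. With no such filter, limma gave a log2 fold change of 0.17 (SE 0.06, adjusted p = 0.231), a value that the added 1 in log2(FPKM + 1) holds down. With 0.1 added in place of 1, the difference was 0.59 on the log2 scale.

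The depth behind these low values could be read from the deposited FPKM, because low values of single-exon genes fell at whole multiples of the value of 1 fragment. At its transcript length of 4104 bases, the Slc5a1 values correspond to about 39, 10 and 27 fragments in TAC replicates 1 to 3 and about 65, 37, 32 and 39 in TAC + EMPA replicates 1 to 4. Libraries differed in depth up to 2.26-fold, and TAC replicate 2, with the lowest value, was also the shallowest library. The 5 small intestine markers summed to 0.0798 to 0.179 FPKM in the TAC group and 0.0438 to 0.282 in the TAC + EMPA group, and the sucrase gene Sis was listed at 0 throughout. Slc5a1 lies at chromosome 5, 33104219 to 33162870 on the plus strand of GRCm38.

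Slc5a2, which encodes the kidney cotransporter that EMPA inhibits, was not detectable in 6 of the 7 libraries. It stood at 0.0936 FPKM in TAC replicate 1, about 9 fragments, and was listed at 0 in TAC replicates 2 and 3 and in all 4 TAC + EMPA libraries. Slc5a2 is not among the genes marked as too abundant to estimate, and the table marks it as not tested. If its listing of 0 is read as a count, it allows up to 3 fragments, which is 0.0317 FPKM in the deepest TAC + EMPA library and up to 0.0717 FPKM in the shallowest TAC library, for counting error only. Since Slc5a2 was above 0 in TAC replicate 1 alone, the exact permutation p of 0.429 would be the same at any value there. The test therefore cannot compare the groups for this gene, and no fold is given. The 6 kidney tubule markers summed to 0.111 to 0.231 FPKM in the TAC group and 0.144 to 0.377 in the TAC + EMPA group. The deposited locus of Slc5a2 also spans BC017158, a gene on the opposite strand whose FPKM was 1.89 to 2.79, so whether the fragments of TAC replicate 1 came from Slc5a2 was not tested. The gene lies at chromosome 7, 128265657 to 128272430 on the plus strand.

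**Figure D1:**
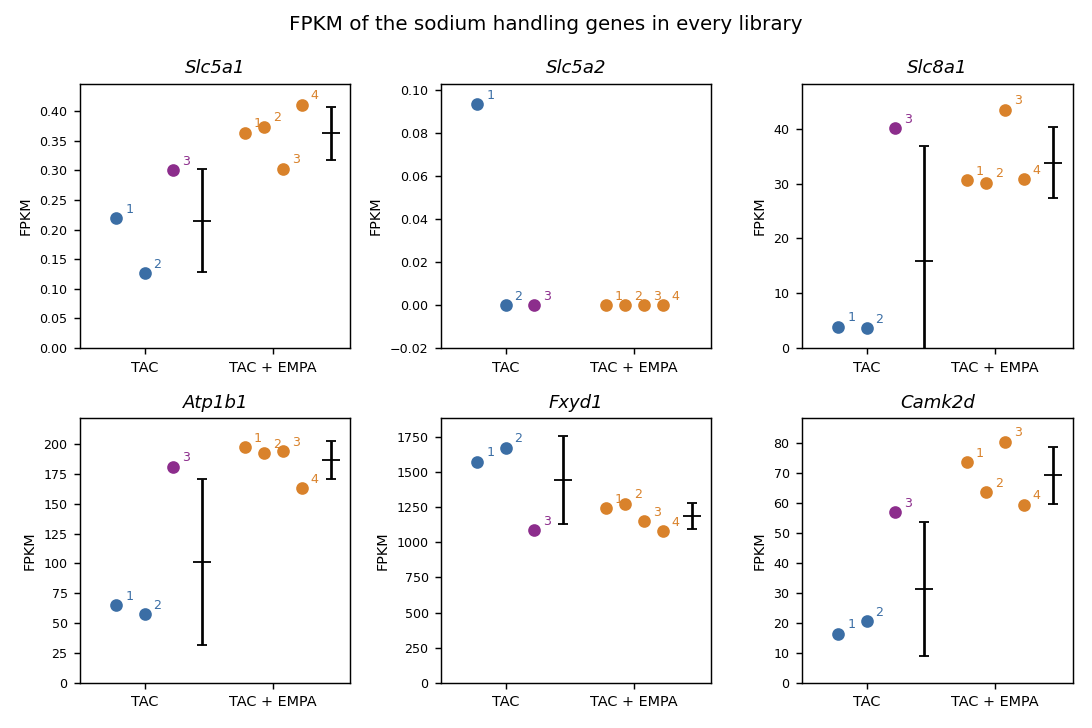
FPKM (vertical axis) of the 6 genes in each library, with replicate numbers beside the points, TAC replicate 3 in purple, and black bars for the mean and SD of each group (none for Slc5a2, which was listed at 0 in 6 libraries). TAC replicate 3 sits with the TAC + EMPA libraries for Slc8a1 and Atp1b1, and for Slc5a1 and Camk2d all TAC + EMPA points lie above all TAC points.

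Slc8a1, which encodes the sodium-calcium exchanger of heart muscle, had the widest spread between libraries. Its FPKM was 3.88 and 3.58 in TAC replicates 1 and 2 and 40.1 in TAC replicate 3. In TAC + EMPA replicates 1 to 4 it was 30.6, 30.2, 43.5 and 30.8. The groups overlapped through TAC replicate 3 alone, which exceeded 3 of the 4 TAC + EMPA libraries and stood 10.7-fold above the mean of the other TAC libraries. By this gap on the log2(FPKM + 1) scale, Slc8a1 ranked 25 of the 12391 genes, counted from the largest rise in TAC replicate 3. With all libraries the log2 fold change was 1.82 (SE 0.73), which did not pass limma's test (adjusted p = 0.134), and the exact permutation test gave p = 0.114. Without TAC replicate 3 it was 2.86 (SE 0.16, limma adjusted p = 1.85e-04). Against TAC replicate 3 alone the TAC + EMPA mean was 0.26 lower on the log2 scale (-0.26). The gene lies at chromosome 17, 81373105 to 81738377 on the minus strand.

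Within its family, Slc8a1 made up 96.4% ± 2.87 (SD, n = 3) of the summed FPKM of Slc8a1, Slc8a2 and Slc8a3 in the TAC group and 99.0% ± 0.388 (SD, n = 4) in the TAC + EMPA group, a difference of 2.67 percentage points (exact permutation p = 0.143). The difference was 4.23 without TAC replicate 3 and 1.42 without TAC replicate 1. Slc8a2 and Slc8a3, exchangers known from brain and skeletal muscle, had mean FPKM of 0.246 and 0.0271 over all libraries. Slc8b1, the exchanger of the inner mitochondrial membrane, was at 3.84, 4.47 and 4.33 FPKM in the TAC group and 5.51, 3.70, 2.72 and 2.56 in the TAC + EMPA group. Its log2 fold change was -0.21 (SE 0.21, limma adjusted p = 0.472), and unlike Slc8a1 it was level across the 3 TAC libraries.

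Atp1b1, which encodes the main beta subunit that carries the sodium pump to the plasma membrane, split the libraries in the same way. Its FPKM was 64.9 and 57.7 in TAC replicates 1 and 2 and 181 in TAC replicate 3. In TAC + EMPA replicates 1 to 4 it was 197, 192, 194 and 163. TAC replicate 3 lay above TAC + EMPA replicate 4 and below the other TAC + EMPA libraries, and it was 2.95-fold above the mean of TAC replicates 1 and 2. The log2 fold change was 1.07 (SE 0.37, limma adjusted p = 0.118; exact permutation p = 0.0571), and without TAC replicate 3 it was 1.59 (SE 0.10, limma adjusted p = 1.96e-04). Against TAC replicate 3 alone it was 0.04. The gene lies at chromosome 1, 164437109 to 164458355 on the minus strand and overlaps Nme7 on the other strand, which was at 2.84 to 4.12 FPKM, far below Atp1b1.

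The other beta subunits did not rise as Atp1b1 did: Atp1b2 showed no such split, and Atp1b3 was lower where Atp1b1 was high. Atp1b1 took a larger share of the sum of the 3 in those libraries. Atp1b2, the beta subunit known from brain glia, was at 7.26 to 11.1 FPKM over the libraries, with a log2 fold change of 0.05 (SE 0.15, limma adjusted p = 0.818). Atp1b3 was at 24.5, 25.6 and 21.1 FPKM in the TAC group and 19.4, 19.2, 19.5 and 20.3 in the TAC + EMPA group, so all TAC + EMPA libraries lay below all TAC libraries (log2 fold change -0.26, SE 0.10, limma adjusted p = 0.122, and -0.34 without TAC replicate 3). The share of Atp1b1 among the 3 beta subunits was 66.6%, 62.8% and 86.0% in TAC replicates 1 to 3 and 88.1%, 87.8%, 86.4% and 84.6% in TAC + EMPA replicates 1 to 4. The groups overlapped, with a difference of 14.9 percentage points (exact permutation p = 0.0571) and of 22.0 without TAC replicate 3. FPKM is per length, so shares of a family do not depend on the scaling of a library.

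Fxyd1 encodes phospholemman, a small membrane protein of heart muscle that restrains the sodium pump until it is phosphorylated. It was by far the most abundant of the 6 genes, at rank 69 of the 12391 genes by mean FPKM, and the one of the 4 tested whose mean was lower in the TAC + EMPA group. Its FPKM was 1572, 1671 and 1085 in TAC replicates 1 to 3 and 1243, 1273, 1150 and 1077 in TAC + EMPA replicates 1 to 4. TAC replicates 1 and 2 lay above all other libraries, and TAC replicate 3 lay above TAC + EMPA replicate 4 only. The log2 fold change was -0.26 (SE 0.16), within the spread of the libraries (limma adjusted p = 0.278; exact permutation p = 0.200). Without TAC replicate 3 it was -0.45 (SE 0.08, limma adjusted p = 0.00485), and against TAC replicate 3 alone it was 0.12, so the direction turned. Fxyd1 made up 94.6% ± 0.476 (SD, n = 3) and 95.1% ± 0.288 (SD, n = 4) of the summed FPKM of Fxyd1 to Fxyd7, a difference of 0.491 percentage points (exact permutation p = 0.171) that was 0.472 without TAC replicate 3, 0.264 without TAC replicate 1 and 0.738 without TAC replicate 2. It lies at chromosome 7, 31051678 to 31057199 on the minus strand.

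Set against each other, the regulator and the subunit diverged: the FPKM of Fxyd1 was 24.2 and 28.9 times that of Atp1b1 in TAC replicates 1 and 2, 5.99 times in TAC replicate 3 and 5.92 to 6.63 times in the TAC + EMPA group. This ratio was chosen after the values were seen and is given without a test. It separates TAC replicates 1 and 2 from the other 5 libraries and does not separate the groups.

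Camk2d encodes the delta isoform of calmodulin kinase II, the main isoform of the heart, and was higher in every TAC + EMPA library than in every TAC library. Its FPKM was 16.4, 20.6 and 57.0 in TAC replicates 1 to 3. In TAC + EMPA replicates 1 to 4 it was 73.6, 63.7, 80.5 and 59.4. TAC replicate 3 came within a few units of the lowest TAC + EMPA library and was 3.09-fold above the mean of TAC replicates 1 and 2. The log2 fold change was 1.32 (SE 0.39), which did not pass limma's test across genes (adjusted p = 0.115). The exact permutation test gave its smallest possible p, 0.0286, unadjusted. Of the 12391 genes tested by limma, 11.5% had every TAC + EMPA library above every TAC library. Without TAC replicate 3 the log2 fold change was 1.85 (SE 0.15, limma adjusted p = 3.24e-04), and against that library alone it was 0.27. The gene lies at chromosome 3, 126596302 to 126846326 on the plus strand.

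Camk2d also took a larger share of the summed FPKM of the 4 Camk2 genes. The share was 50.5%, 55.2% and 61.3% in TAC replicates 1 to 3 and 70.1%, 67.9%, 63.5% and 62.7% in TAC + EMPA replicates 1 to 4. The groups did not overlap, with means of 55.7% ± 5.44 (SD, n = 3) and 66.1% ± 3.56 (SD, n = 4) and an exact permutation p of 0.0286, the smallest of this design. The difference of 10.4 percentage points was 13.2 without TAC replicate 3. Camk2g, which encodes the gamma isoform, was at 8.39, 9.02 and 18.1 FPKM in the TAC group and 16.3, 14.0, 26.0 and 17.9 in the TAC + EMPA group, with a log2 fold change of 0.65 (SE 0.29, limma adjusted p = 0.163) and, without TAC replicate 3, of 0.98 (limma adjusted p = 0.0117). Camk2b, the beta isoform, was at 3.34 to 4.12 FPKM in the TAC group and 3.89 to 5.16 in the TAC + EMPA group. The remaining Camk2 gene is counted in the share, and its values are not reported here.

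**Figure D2:**
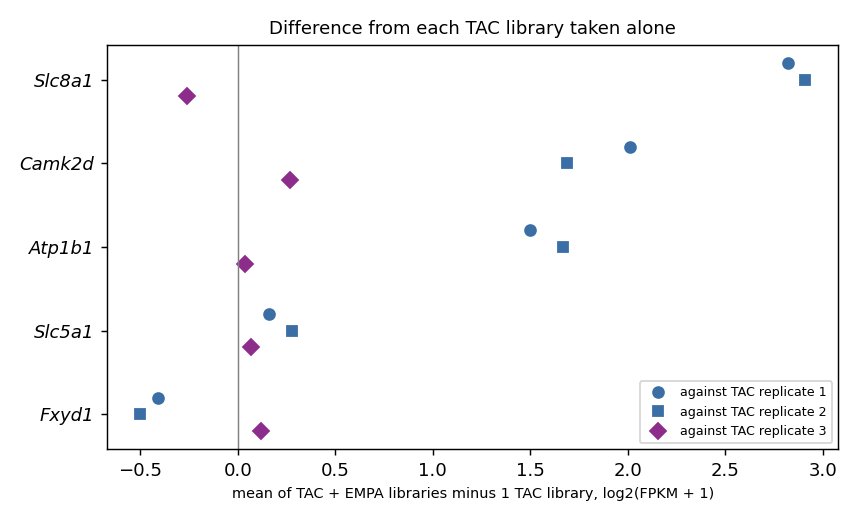
Mean of the 4 TAC + EMPA libraries minus each single TAC library (horizontal axis, log2(FPKM + 1)) for the 5 genes read in all libraries, with circles, squares and diamonds for TAC replicates 1, 2 and 3. For Slc8a1 the difference is 2.82 and 2.91 against TAC replicates 1 and 2 and -0.26 against TAC replicate 3, and for Camk2d all 3 differences are above 0.

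**Figure D3:**
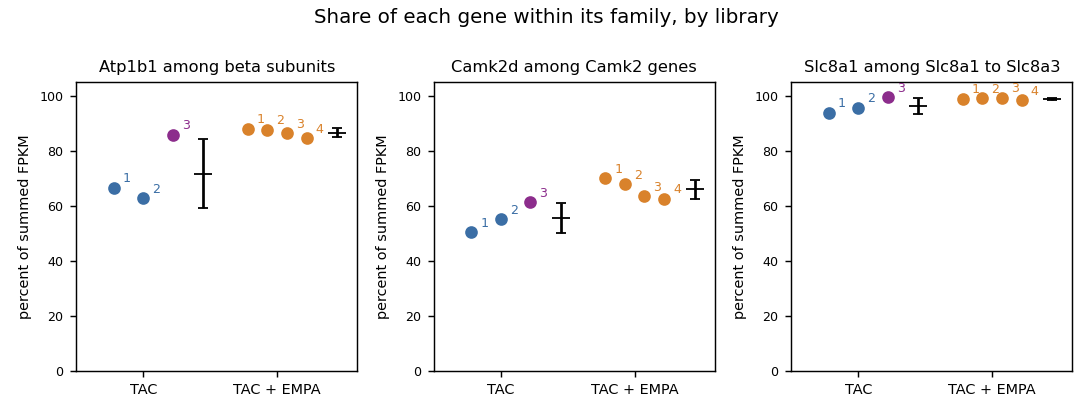
Percent of the summed FPKM of the family (vertical axis, from 0) taken by Atp1b1, Camk2d and Slc8a1 in each library, with replicate numbers and with bars for the mean and SD of each group. The Camk2d share is 50.5% to 61.3% in the TAC group and 62.7% to 70.1% in the TAC + EMPA group, without overlap.

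Over the members, none of the 4 genes tested passed an adjusted p of 0.05 with all libraries, and limma called 0% of the 12391 genes at that level. Taking limma's unadjusted p under 0.05, Slc8a1, Atp1b1 and Camk2d were higher, 3 of the 4, where 19.0% of all genes were higher and 14.7% were lower, and Fxyd1 was neither. Of the 4, 1 had all TAC + EMPA libraries above all TAC libraries, where 11.5% of all genes did, and 0 had them all below, where 10.7% did. The log2 fold change was above 0 in 3 of 4, against 53.2% of all genes. Without TAC replicate 3, limma called 3 of the 4 higher and 1 lower, where it called 29.8% of all genes higher and 23.6% lower. Of the 6 genes 4 passed the filter on low values. The genes were chosen with earlier results of these data known, so these counts are a description and not an independent test. Slc8a1 and Camk2d are also among the genes of the authors' deposited tables of enriched terms, which were made from genes selected on these same libraries, so their direction there is not separate evidence. A correction was made for the exonic length of each gene, on which FPKM differences between libraries can depend. With it the log2 fold change of Slc8a1, with 18807 exonic bases, went from 1.82 to 1.62. That of Camk2d, with 22493, went from 1.32 to 1.11. Atp1b1 went from 1.07 to 1.06 and Fxyd1 from -0.26 to -0.21.

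Genes with the most similar profiles were sought by the root mean square difference of log2(FPKM + 1) over the 7 libraries, each gene centred on its own mean. For Atp1b1 these were Oxct1, the rate-limiting enzyme of ketone body use (difference 0.026), Cyfip2 (0.063) and Uqcc1, an assembly factor of respiratory complex III (0.072). Oxct1 stood at 249, 219 and 711 FPKM in the TAC group and 755, 747, 761 and 647 in the TAC + EMPA group, so it followed Atp1b1 library by library, including the low TAC + EMPA replicate 4. For Slc8a1 they were Pm20d2 (0.165), Gpam, the mitochondrial enzyme that begins glycerolipid synthesis (0.170), and Pdpr, a regulator of pyruvate dehydrogenase phosphatase (0.242). For Camk2d they were the kinase gene Hipk2 (0.080), Ank3, the gene of the membrane adaptor ankyrin-G (0.104), and Zfp106 (0.113). For Fxyd1 they were Sec63, a part of the protein import machinery of the endoplasmic reticulum (0.038), the formin gene Fmnl2 (0.041) and the ubiquitin gene Ubb (0.042). Among the sodium handling genes themselves, Atp1b1 and Camk2d were closest to each other (0.199), and Fxyd1 and Slc8a1 were farthest apart (1.551). These are descriptions over 7 libraries that share the split of TAC replicates 1 and 2 from the rest.

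The wider sodium system was read from 8 lists with 82 genes, of which 43 passed the filter and none passed limma's adjusted threshold. These lists too were chosen with earlier results of these data known. By the unadjusted p, 14 of the 43 were higher and 7 lower, where 19.0% and 14.7% of all genes were, and these shares of all genes apply to each list below. Without TAC replicate 3, limma's adjusted threshold called 19 higher and 10 lower, where it called 29.8% and 23.6% of all genes. With all libraries their median log2 fold change was 0.14, against 0.03 over all genes. Leaving out the members, 11 of 39 were higher and 7 lower, with the same median. With the library TAC replicate 3 as the only control, the median difference over the 43 was -0.02.

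In the cotransporter family, 1 of 13 genes passed the filter. This was Slc5a6, the sodium-dependent transporter of vitamins such as biotin and pantothenate, at 2.95, 2.67 and 3.87 FPKM in the TAC group and 4.16, 4.29, 4.93 and 4.26 in the TAC + EMPA group. The groups did not overlap (log2 fold change 0.39, SE 0.12, limma adjusted p = 0.117), and without TAC replicate 3 the log2 fold change was 0.51. Slc5a1 made up 4.90% ± 1.08 (SD, n = 3) and 6.93% ± 1.48 (SD, n = 4) of the family's summed FPKM (exact permutation p = 0.114), a difference of 2.02 percentage points and of 1.85 without TAC replicate 3. Slc5a11, an inositol cotransporter named here after its values were seen, stood at 2.25 FPKM in TAC replicate 3 and 0.735 in TAC + EMPA replicate 3 and at 0.0188 to 0.0868 elsewhere, and it enlarges the sum in those libraries.

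Of the sodium-proton exchangers and their partners, 7 of 13 passed the filter, 3 were higher and 2 lower by the unadjusted p, and the median was 0.07. With TAC replicate 3 left out, 3 were called higher and 2 lower, with a median of 0.16. Slc9a8, the exchanger of the Golgi apparatus, had a log2 fold change of 0.35 (0.41 without TAC replicate 3), and Chp1, a calcium-binding partner that exchangers need at the cell surface, one of 0.41 (0.52 without TAC replicate 3), both without overlap of the groups. Slc9a3r2, a scaffold protein of exchangers and the most abundant gene of this list, was at 138, 169 and 61.0 FPKM in the TAC group and 57.2 to 59.2 in the TAC + EMPA group, with a log2 fold change of -0.94 (SE 0.32, limma adjusted p = 0.117), of -1.38 without TAC replicate 3 and of -0.06 against TAC replicate 3 alone. It was thus high in TAC replicates 1 and 2, as were the endothelial and macrophage marker sums.

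Of the sodium pump subunits, 5 of 8 passed the filter, 2 were higher and 1 lower, with a median of 0.23 and, without Atp1b1, of 0.14. In the fit lacking TAC replicate 3, 3 were called higher and 1 lower. Of the FXYD genes, which encode small regulators of the pump, 5 of 7 passed and all 5 had a log2 fold change below 0, as had 46.8% of all genes. Of these 3 were lower by the unadjusted p, where 14.7% of all genes were, and the median was -0.49. When TAC replicate 3 was left out, 4 were called lower and 0 higher, with a median of -0.62. Fxyd2, the gamma subunit of the kidney pump, was at 6.16, 3.99 and 6.91 FPKM in the TAC group and 3.27, 3.27, 1.28 and 2.71 in the TAC + EMPA group, without overlap. Its log2 fold change was -0.90 (SE 0.26, limma adjusted p = 0.115), against TAC replicate 3 alone it was -1.17, and without that library it was -0.76 (limma adjusted p = 0.0700). Fxyd3 was at 1.21 to 1.96 FPKM in the TAC group and at most 1.10 in the TAC + EMPA group (log2 fold change -0.59, limma adjusted p = 0.115, and -0.72 without TAC replicate 3). Fxyd6 was at 18.0 to 24.9 and 12.1 to 18.3 FPKM, with a slight overlap (log2 fold change -0.49, limma adjusted p = 0.117, and -0.62 without TAC replicate 3). Fxyd5 was at 65.5, 53.7 and 35.3 FPKM in the TAC group and 38.2 to 43.3 in the TAC + EMPA group (log2 fold change -0.26, limma adjusted p = 0.355), and without TAC replicate 3 it was at -0.50 (limma adjusted p = 0.00614). Against TAC replicate 3 alone Fxyd3 (-0.32) and Fxyd6 (-0.24) kept their sign, and Fxyd5 (0.23) did not.

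Of the sodium channel subunits and partners, 9 of 18 passed, 3 were higher and 0 lower by the unadjusted p, and the median was 0.62. The median was 0.97 without TAC replicate 3, where 5 were called higher and 0 lower, -0.05 against TAC replicate 3 alone, and 0.09 with no filter on low values. Fgf13, a growth factor homolog that stays inside the cell and modulates sodium channels, was at 11.1, 8.47 and 35.4 FPKM in the TAC group and 47.0, 52.1, 52.1 and 44.9 in the TAC + EMPA group. The groups did not overlap (log2 fold change 1.63, SE 0.42, limma adjusted p = 0.115), and the log2 fold change was 2.22 without TAC replicate 3 and 0.46 against that library alone. Gpd1l, an enzyme that affects the surface level of the cardiac sodium channel, was at 9.16, 8.41 and 19.3 FPKM and 17.0 to 19.7, with overlap (log2 fold change 0.62, limma adjusted p = 0.143). Its log2 fold change lacking TAC replicate 3 was 0.97 (limma adjusted p = 3.41e-04).

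Of calmodulin kinase II and calmodulin genes, 8 of 9 passed, 2 were higher and 1 lower, with a median of 0.18 and, without Camk2d, of 0.17. In the fit lacking TAC replicate 3, 3 were called higher and 2 lower. Of the other sodium-coupled ion transporters, 6 of 10 passed, 2 were higher and 0 lower, with a median of 0.25. When TAC replicate 3 was left out, 3 were called higher and 1 lower, with a median of 0.40. Slc20a2, a sodium-phosphate cotransporter, was at 19.6 to 44.2 FPKM in the TAC group, the highest value in TAC replicate 3, and 46.9 to 54.2 in the TAC + EMPA group, without overlap (log2 fold change 0.95, SE 0.27, limma adjusted p = 0.115, and 1.33 without TAC replicate 3). Slc4a4, a sodium-bicarbonate cotransporter, was at 0.698, 0.793 and 3.17 FPKM and 2.64 to 3.89, with overlap (log2 fold change 0.76, SE 0.32, limma adjusted p = 0.141). Its log2 fold change lacking TAC replicate 3 was 1.18 (limma adjusted p = 0.00111).

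**Figure D4:**
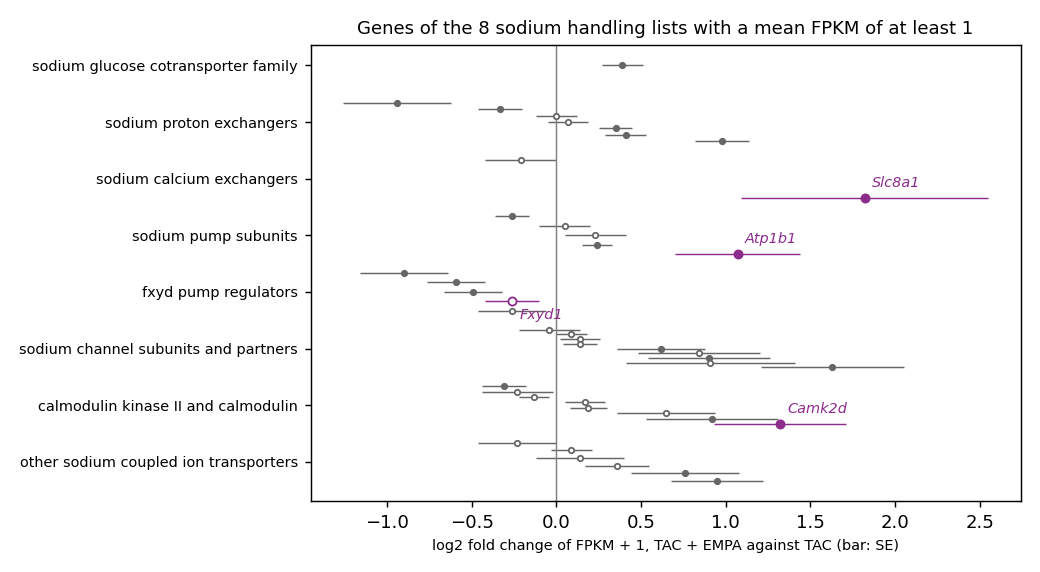
Log2 fold change of FPKM + 1 between the TAC + EMPA and TAC groups with its SE (horizontal axis) for the 43 genes of the 8 lists with a mean FPKM of at least 1, filled where the unadjusted limma p is under 0.05, with the sodium handling genes of the main text in purple. Slc8a1 has the largest fold change (1.82) and the widest SE (0.73), and the 5 FXYD genes all lie below 0.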

How the data were processed

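RNA of hearts of 3 TAC and 4 TAC + EMPA mice was sequenced from stranded libraries of polyadenylated RNA. Per the submitters' processing notes, the authors used TopHat2 2.0.13, Cufflinks 2.2.1 and Cuffdiff with GRCm38 (mm10), and they deposited 1 FPKM per gene and library, scaled for the length of the transcript and the size of the library. How libraries were scaled to each other, and whether strand was used in counting, are not given in the sources used here. The deposited fold changes, p-values, q-values and tables of enriched terms are the authors' own comparisons and were not used, except to see which of the 6 genes the term tables name.

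Groups and replicate numbers came from the sample titles. Values were transformed to log2(FPKM + 1), so that fold changes of low genes are understated. The 12391 genes whose mean FPKM reached 1 were tested. The groups were compared two-sided with limma 3.58.1 (R 4.3.3) under a trended prior variance, p-values were adjusted by Benjamini-Hochberg over these genes, and the threshold was 0.05. Single genes and family shares were tested with an exact permutation test over all 35 assignments. Mice are taken as the replicates. Single-exon genes gave the FPKM value of 1 fragment in each library (at least 98.9% of low values lay within 0.1 of a whole number), so relative depth is known, while total fragments are not. Positions are from GENCODE M21 and promoters from RefSeq, both on GRCm38.

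The members and lists were chosen with earlier results of these data known. Named were all members, the genes of each list at an unadjusted p under 0.05 (at most 4), the most abundant gene of each list, and the 3 nearest profiles of each member. Other genes of a member's own family were named beside its share. Some genes of the lists are counted but their results are not reported. The limma fit, the exact test and the reading of fragments were tested on simulated data. Python 3.11.15, pandas 2.3.3 and matplotlib 3.10.9 served for tables and figures. The alternatives were the pseudocount, the filter, the scaling, a replicate block, the prior, library weights, exonic length, the threshold and each library left out. After seeing the data, TAC replicate 3 as the only TAC library and lists without their members were added.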

Additional observations from a re-analysis of the deposited data

Results flagged for a closer look

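In the TAC + EMPA group, 2 of the 10 sets of values examined held a library far from the other 3, where chance alone gives about 1 in 20. The Slc8a1 FPKM of TAC + EMPA replicate 3, at 43.5, stood above the other libraries at 30.2 to 30.8, and this gap was 0.956 of the range of the group. The Atp1b1 FPKM of TAC + EMPA replicate 4, at 163, stood below the other libraries at 192 to 197, with a gap of 0.853 of the range. TAC + EMPA replicate 4 also had the highest summed FPKM of skeletal muscle markers (172, against 2.03 to 5.85 in the rest of the group) and of hepatocyte markers (68.5, against 2.85 to 3.30), and their part in its Atp1b1 value was not tested. The TAC group, with 3 libraries, is too small for this rule.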

How the results depend on the processing

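With all 7 libraries and equal weights, the direction of Slc8a1, Atp1b1, Fxyd1 and Camk2d was kept under 9 other settings, with log2 fold changes of 1.62 to 2.00, 1.03 to 1.13, -0.30 to -0.07 and 1.11 to 1.39. Changes of the filter or of the prior cannot move a gene's log2 fold change, only its SE and p-value. For those settings the direction was therefore fixed in advance. The lowest adjusted p of limma in the 9 settings was 0.102, for Atp1b1 and for Camk2d, and none passed. Leaving out each library in turn gave 1.28 to 2.86, 0.77 to 1.59, -0.45 to -0.14 and 0.98 to 1.85, and the highest or, for Fxyd1, the lowest value came without TAC replicate 3. Counts of genes passing limma's adjusted threshold ran from 0 to 3694 higher and from 0 to 2930 lower when a library was left out, and the upper ends came without TAC replicate 3. Without TAC replicate 1, 1 was higher and 4 were lower. Library weights estimated by limma, whose estimation stopped before its tolerance, gave 3310 higher and 2551 lower, and all 4 members then passed, with Slc8a1 at 2.63, Atp1b1 at 1.53, Fxyd1 at -0.38 and Camk2d at 1.77. No filter gave 2 lower genes. With TAC replicate 3 as the only TAC library, whose spread is assumed to be that of the TAC + EMPA group, 2 genes were higher and 17 lower, and Slc8a1 (-0.26) and Fxyd1 (0.12) turned. The cause was not tested.

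With the replicate number as a block, no gene passed (0 higher and 0 lower), and Slc8a1 was at 1.86, Atp1b1 at 1.13, Fxyd1 at -0.22 and Camk2d at 1.39. The deviations of same-numbered libraries correlated at 0.104, 0.084 and -0.029, and those of differently numbered libraries at -0.169 to 0.06. Whether the numbers pair the samples cannot be told from so few libraries.

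Of 147 alternative values of list medians, 17 moved by more than the spread between libraries, 4 changed sign and 2 came to 0 at 2 decimals. With no filter the cotransporter family came to 0 from 0.39 and the exchangers went from 0.80 to 0.07, and at a mean FPKM of at least 5 the other transporters went from 0.25 to 0.95. With TAC replicate 3 as the only TAC library these were the sodium-calcium exchangers (-0.25), sodium channels and partners (-0.05) and calmodulin kinase II and calmodulin (-0.01), and the exchangers without Slc8a1 also turned (-0.21). With 3 and 4 libraries the exact test cannot go below 0.0286, and with about 10 to 65 fragments a library the Slc5a1 values carry a wide counting error.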
